A study of Mus musculus with 2 samples.

Results

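Chromatin accessibility at 9 mechanosensitive ion channel genes, Piezo1, Piezo2, Trpv4, Trpc6, Trpm7, Kcnk2, Pkd2, Tmem63a and Tmem63b, was measured in mouse cardiac fibroblasts. The members were the rows of the deposited peak table whose gene symbol was 1 of these names, which gave 42 of 63316 peaks and 9 of 16934 genes with a peak. Every member gene had at least 1 peak. The assay was ATAC-seq, in which Tn5 transposase places sequencing adapters in open DNA, so that reads gather over accessible regions. Both libraries came from primary cardiac fibroblasts that first received a scrambled siRNA (SCR, labelled NC) or an siRNA against Piezo2 (siPiezo2). Both were then exposed for 24 h to 5 ng/ml of TGF-β, a cytokine that drives fibroblasts towards myofibroblasts. The methods put the study's mouse strains on a C57BL/6 J background, and the age, sex and number of animals behind these cultures were not given in the sources used here. The series' own design text speaks of Tet3 deleted with Cre virus rather than of an siRNA, and the study's ATAC-seq protocol starts from minced tissue and names another kit than the labels do, although the reagent list includes the labels' kit. The values below follow the labels. Each condition had 1 library, so differences have no replicate check and no test of the conditions was made. A difference in density can come from fewer cells with an open region or from a region less open in each cell, and these cannot be told apart. An siRNA acts on RNA, so the Piezo2 peaks do not check how well the gene was silenced.

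Mechanosensitive channels open when the membrane around them is stretched or bent and let ions, often calcium, into the cell, and so turn force into a biochemical signal. Piezo1 and Piezo2 are large trimeric cation channels, of which PIEZO2 is best known for touch and body position sense in sensory neurons and PIEZO1 for flow and stretch sensing in blood vessels. TRPV4, TRPC6 and TRPM7 are cation channels of the TRP family that have been linked to myofibroblast differentiation. PKD2 is a TRP related calcium channel of the primary cilium and the endoplasmic reticulum, KCNK2 (TREK-1) is a stretch-activated potassium channel, and TMEM63A and TMEM63B belong to the OSCA/TMEM63 family of stretch-activated cation channels.

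The promoters of these genes differ in base composition and in the letters of the factors the study considered, so the stretch of 150 bases before the RefSeq start is shown for 4 members that hold a searched motif there. A RefSeq promoter window (250 bases before to 50 after the start, build GRCm38.p6) was matched for 8 of 9 members, and Piezo2 was not matched. Kcnk2 has 4 such windows, and the outermost is used for it unless another is named. Capitals mark the motif, and sequences run 5′ to 3′ on the strand of the gene. They come from chr8:122551330-122551479 (minus strand), chr5:104459307-104459456 (plus), chr1:180942368-180942517 (plus) and chr9:8543992-8544141 (plus) for Piezo1, Pkd2, Tmem63a and Trpc6.
Piezo1: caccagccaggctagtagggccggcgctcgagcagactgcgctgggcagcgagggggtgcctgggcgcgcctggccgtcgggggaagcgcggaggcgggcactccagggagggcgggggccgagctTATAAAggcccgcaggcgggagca
Pkd2: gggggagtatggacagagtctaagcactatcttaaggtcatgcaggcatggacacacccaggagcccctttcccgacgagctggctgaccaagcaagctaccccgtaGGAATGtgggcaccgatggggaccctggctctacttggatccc
Tmem63a: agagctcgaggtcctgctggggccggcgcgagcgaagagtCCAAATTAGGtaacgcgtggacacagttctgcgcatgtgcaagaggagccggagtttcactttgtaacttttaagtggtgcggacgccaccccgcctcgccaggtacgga
Trpc6: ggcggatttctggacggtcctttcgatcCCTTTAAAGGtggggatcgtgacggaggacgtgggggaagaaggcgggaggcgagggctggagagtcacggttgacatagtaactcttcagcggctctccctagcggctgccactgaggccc

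Tmem63a and Trpc6 hold a CArG box, the site of SRF (CC, then any 6 of A or T, then GG), which 1.63% of all 32851 promoter windows hold on either strand. It lies at positions -110 to -101 of Tmem63a and -122 to -113 of Trpc6, where -1 is the base before the start. Pkd2 holds GGAATG, the core of the TEAD site, at -43 to -38, and Kcnk2 holds it on the opposite strand at -89 to -84, whereas 14.7% of all windows hold it. Piezo1 holds TATAAA at -24 to -19, as 13.6% of all windows do anywhere. GAGGAAGT, a PU.1 site (3.2% of all windows), and TGANTCA, the AP-1 site (7.81%), were in 0 of the 8 outermost windows, and TGANTCA was in 1 of the other 3 windows of Kcnk2, at -126 to -120. Both strands were searched and no hit shown here overlaps another. A match describes letters and is not a bound site. The promoter sequences and the peak table are of different builds, so the place of these letters relative to the peaks was not determined. The windows of Trpm7, Piezo1, Tmem63b, Tmem63a and Trpv4 held 30 to 35 CG dinucleotides, above the upper quartile of 20 of all windows. Trpc6 held 17, Pkd2 held 9 and the outermost window of Kcnk2 held 6, and the median of all windows was 7. The other 3 windows of Kcnk2 held 33, 33 and 3.

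Densities are reads per kb in a window of 2000 bp around each peak, as normalized by the authors so that peaks called in both libraries centre on a ratio of 1. Reads in these windows numbered 4615335 for SCR and 2754046 for siPiezo2, a ratio of 0.597. Whole reads were recovered for 100% of the windows to within 0.05 of a read, and give the 95% exact Clopper-Pearson intervals below, which cover counting error only. Peaks called in both libraries scattered with 2.12 times the counting variance, which corresponds to intervals 1.45 times as wide, and these are called widened here. The median member peak had 67.5 reads in SCR and 34.5 in siPiezo2. Positions of genes and peaks are those of the table, on GRCm39. Ratios are log2((siPiezo2 + 1)/(SCR + 1)) of the densities, so a negative value is a lower density in siPiezo2. Of markers, all 8 of the cardiac fibroblast list had a peak (summed density 1325 in SCR and 1237 in siPiezo2). A peak was also listed at 3 of 5 cardiomyocyte markers (146 and 152, none at Myh6 or Myl2), at 3 of 4 endothelial markers (202 and 231, none at Tie1), at 2 of 4 leukocyte markers (133 and 112, none at Cd68 or Lyz2) and at 1 of 5 neuron and glia markers (117 and 98.5). Of the endothelial markers, Cdh5 had 47.7 and 78.0, Pecam1 had 134.8 and 135.5, and Kdr had 19.0 and 17.7. The part of other cell types in the results was not tested.

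The peaks of the channel genes were mostly lower in siPiezo2. The density was lower at 36 of 42 peaks, beside 63.7% of all peaks, and the median log2 ratio was -0.28 (quartiles -0.54 and -0.073) beside -0.13 over all peaks. Median densities were 28.3 in SCR and 21.3 in siPiezo2, beside 24.5 and 22.1 over all peaks. Of the 42, 6 lay below 0.66 of SCR, where 13.5% of all peaks did, and 1 lay above 1.5 times SCR, where 3.21% of all peaks did. With 0.1 in place of 1 added to each density, 7 lay below 0.66, beside 14.8% of all peaks. These shares are near the background and are not a result about the channel genes. The counting interval lay below 0 at 10 peaks and above 0 at 1, and the widened interval lay below 0 at 1 peak, in intron 3 of Piezo2, and above 0 at none. The shares of all peaks with such intervals were not computed, so these counts have no background. Without the 14 Piezo2 peaks, the median over the other 28 was -0.20, with 25 lower and 4 below 0.66. A setting of 1 factor for all peaks moved the median over the 42 to -0.11, where the median of all peaks became 0.021.

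**Figure D1:**
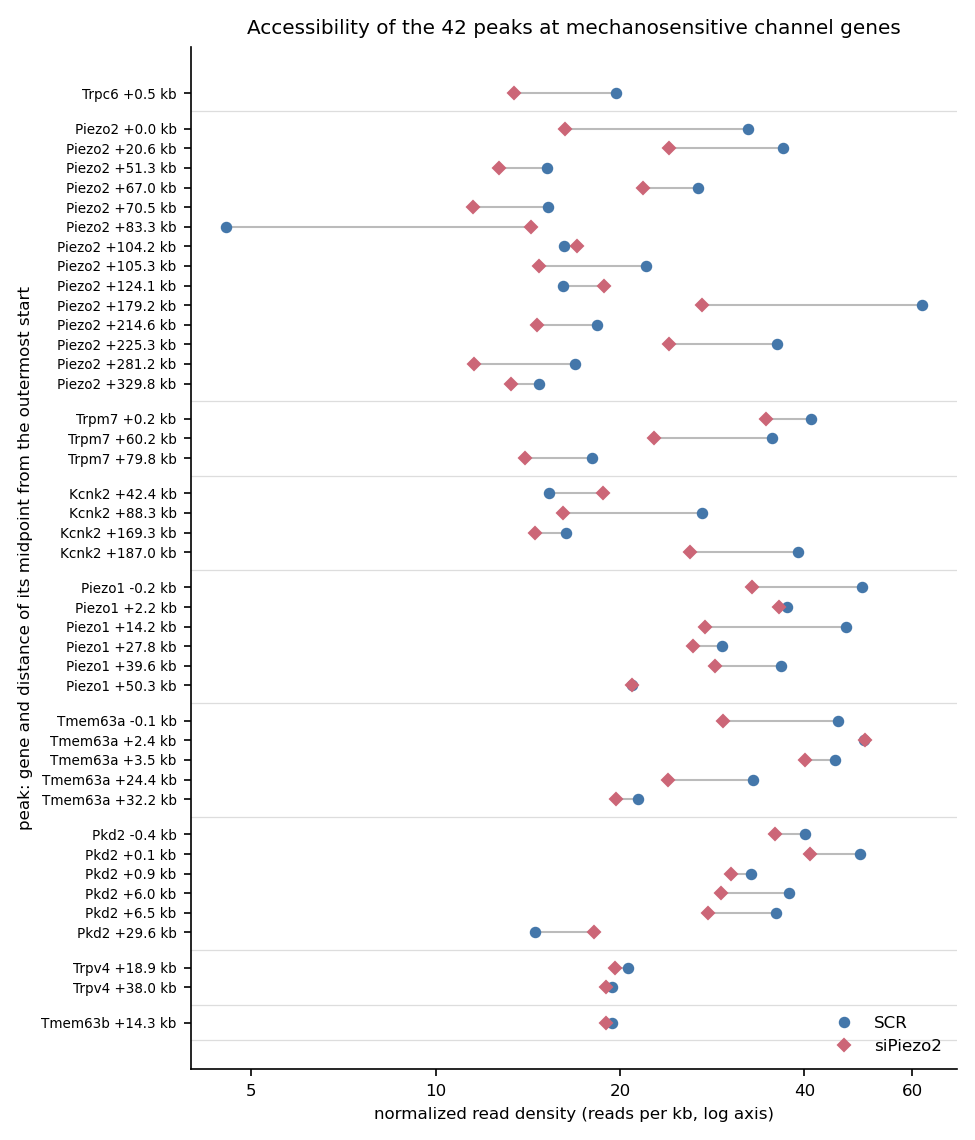
Normalized read density (reads per kb, log axis) of the 42 peaks in SCR (circles) and siPiezo2 (diamonds), 1 library each, grouped by gene with the distance of each midpoint from the outermost start of the gene (negative is upstream). The siPiezo2 point lies to the left at 36 of the 42 peaks, and the widest gaps are at Piezo2, at +179.2 kb (62.3 and 27.3) and, in the other direction, at +83.3 kb (4.55 and 14.3).

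The peaks that the authors' caller found in both libraries were lower throughout. Of the 42 member peaks, 11 (26.2%) were called in both libraries, 29 (69.0%) in SCR only and 2 (4.76%) in siPiezo2 only, beside 33.8%, 64.0% and 2.16% of all peaks. All 11 peaks called in both were lower, with a median of -0.45, beside 49.7% lower and a median of 0.0025 among all peaks called in both. Those 11 lie in Piezo2 (4), Tmem63a (2), Trpm7 (2), Kcnk2, Piezo1 and Pkd2. Of the peaks called in SCR only, 24 of 29 were lower with a median of -0.24, beside 73.1% lower and a median of -0.23 among all peaks of that class. By annotation, 31 member peaks lie in introns, with a median of -0.31 beside -0.17 for all intron peaks. Of these, 4 were below 0.66 of SCR with 1 added to each density, beside 14.8% of all intron peaks. The 5 promoter peaks within 1 kb of an annotated start were all lower, with a median of -0.34, beside 53.7% lower and a median of -0.030 for all such peaks, and the 3 peaks in a 5′ UTR had a median of -0.27 beside -0.043. Of the 5 promoter peaks, the Tmem63a peak 3.48 kb from the outermost start was called in both libraries and the others in SCR only. Of the 5′ UTR peaks, that of Trpm7 was called in both and the others in SCR only. The values for all peaks of an annotation cover every calling class.

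Summed over its peaks, every one of the 9 genes had a lower density in siPiezo2, as did 62.6% of all genes. The members' median log2 ratio was -0.35, and that of all genes was -0.093 (quartiles -0.29 and 0.10). Of the 9, 7 lay below the median of all genes, while Trpv4 and Tmem63b lay above it. No member passed the fold threshold. Of all genes, 6.21% lay below 0.66 of SCR and 1.54% above 1.5. With 1 factor for all peaks in place of the authors' fit, Trpv4 (0.18) and Tmem63b (0.20) turned higher in siPiezo2 and the other 7 remained lower. In order from the lowest ratio, the genes were Trpc6, Piezo2, Trpm7, Kcnk2, Piezo1, Tmem63a, Pkd2, Trpv4 and Tmem63b. The intervals of all 36 pairs of members overlap, neighbours in this order included, so the order is not resolved at this depth. The counting interval lay below 0 at 5 genes, Piezo1, Piezo2, Trpm7, Kcnk2 and Tmem63a, and the widened interval lay below 0 at Piezo1 and Piezo2. The share of all genes with such an interval was not computed, so these counts have no background. At 2 members, Piezo1 and Piezo2, the counting interval lay below the median of all genes. The counts of intervals below 0 depended on the authors' scaling. Under each of 3 other scalings (median of ratios, equal total density, recovered reads at equal totals), the counting interval lay below 0 at 2 genes, Piezo1 and Piezo2, and the widened interval at 1, Piezo2. Summed densities grow with the number of peaks and were not compared between genes.

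**Figure D2:**
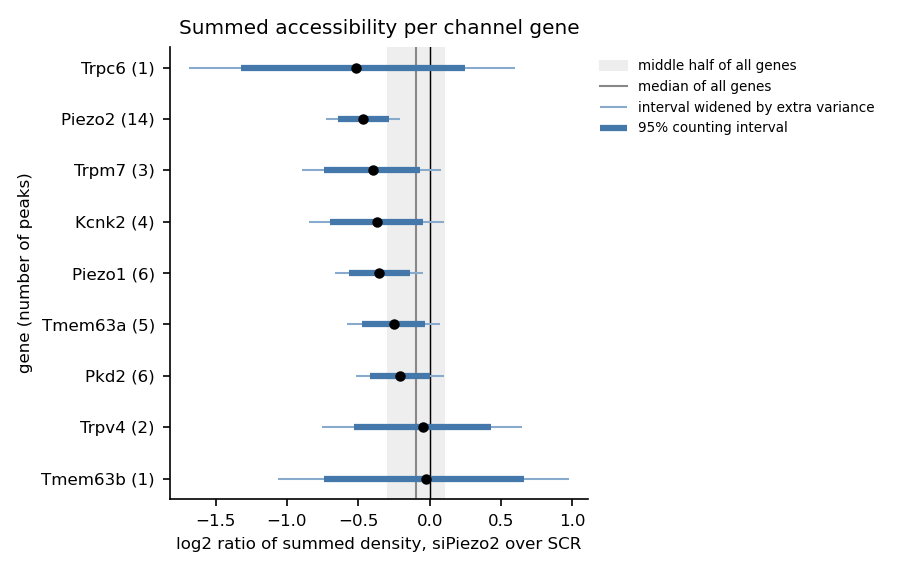
Log2 ratio of summed density (siPiezo2 over SCR) for each of the 9 channel genes, with the number of peaks in brackets, 1 library per condition. Thick bars are 95% counting intervals, thin bars the widened intervals, and the grey band and line are the quartiles and median of all genes (-0.29, 0.10 and -0.093). All 9 points lie left of 0, and only the bars of Piezo1 and Piezo2 clear it when widened, on the authors' scaling.

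Piezo2 (ENSMUSG00000041482, chr18:63143284-63520254, minus strand), the gene targeted by the siRNA, had 14 peaks, all of which overlap the gene. Together they reached a density of 334 for SCR and 242 for siPiezo2, from 791 and 392 reads. The siPiezo2 library thus held 72.4% of the SCR density, a log2 ratio of -0.46 (counting interval -0.64 to -0.29, widened -0.72 to -0.21). Piezo2 was the member whose widened interval lay below the median of all genes, and 11.8% of all genes had a lower ratio. Among the 605 genes with at least 10 peaks, whose median was -0.16 (quartiles -0.26 and -0.065), 3.47% had a lower ratio. The size of the ratio moved with the peaks and the scaling used. It was -0.75 without the weakest 25% of all peaks, -0.73 over the 4 peaks called in both libraries and -0.27 with 1 factor for all peaks.

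The strongest Piezo2 peak lay inside the gene and not at its start. In intron 3 of 53 (chr18:63340844-63341359), 179.15 kb downstream of the outermost start, the density was 62.3 in SCR and 27.3 in siPiezo2, from 157 and 42 reads, a ratio of -1.16 (-1.69 to -0.66). Of all peaks, 1.30% had a lower ratio, and 88.1% had a lower mean density. Without this peak the ratio of the whole gene was -0.34 (-0.53 to -0.15), still below 0. The peak over the start and 5′ UTR (chr18:63520099-63520371) was called in SCR only and had 32.4 and 16.3. Its ratio was -0.95 (-1.65 to -0.29, widened -1.97 to 0.0063). These 2 peaks were the Piezo2 peaks below 0.66 of SCR with 1 added to each density. Without that addition, the intron 1 peak at 20.61 kb lay at 65.1% of SCR.

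In the other direction, the weakest Piezo2 peak of SCR was the only member peak above 1.5 times SCR. It lies in intron 2 (chr18:63436860-63437060), 83.29 kb from the start, was called in siPiezo2 only, and had a density of 4.55 in SCR and 14.3 in siPiezo2, from 9 and 25 reads. Its ratio was 1.46 (0.32 to 2.75, widened -0.20 to 3.33). Only 0.243% of all peaks had a lower mean density. The remaining 11 Piezo2 peaks ranged in ratio from -0.60 to 0.21. Both ends are intronic, with 36.9 and 24.03 in intron 1 at 20.61 kb and 16.2 and 18.8 in intron 2 at 124.1 kb. Across the gene, 11 of 14 peaks were lower and 3 higher, and the 3 higher ones all lie in intron 2, where another 3 peaks were lower. The counting intervals of the higher peaks at 104.2 kb (0.063, -0.70 to 0.81) and 124.1 kb include 0. The window at 104.2 kb overlaps that of the lower peak at 105.32 kb (-0.55), so these peaks share reads. Over the 13 separate windows the ratio of the gene was -0.50 (-0.68 to -0.31). Upstream of the gene, an intergenic peak 5.0 kb from the start (chr18:63525120-63525416) that the table gives to no gene had 25.1 and 17.3, a ratio of -0.51 (-1.21 to 0.16).

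**Figure D3:**
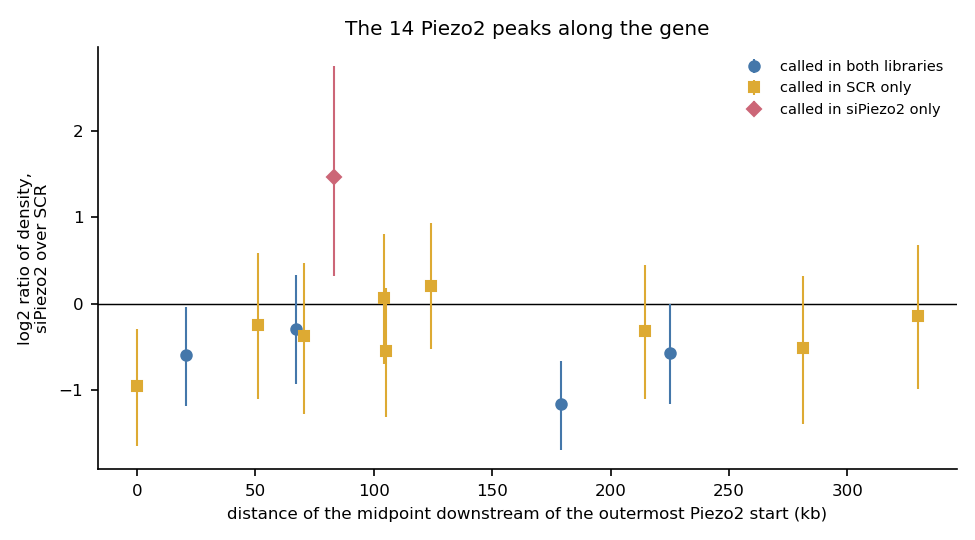
Log2 ratio of density (siPiezo2 over SCR, 1 library each) of the 14 Piezo2 peaks against the distance of the midpoint downstream of the outermost start (kb), with 95% counting intervals and symbols by the library in which each peak was called. Of the 14, 11 lie below 0, the lowest at 179.15 kb (-1.16) and at the start (-0.95), and the highest at 83.29 kb (1.46).

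Piezo1 (ENSMUSG00000014444, chr8:123208437-123278068, minus strand), the other Piezo channel, had 6 peaks that summed to 221 for SCR and 173 for siPiezo2, from 544 and 272 reads. The ratio was -0.35 (-0.57 to -0.14, widened -0.67 to -0.044). Its 2 lowest ratios were at the start and at 1 of the 3 peaks of the first intron. The start peak (chr8:123278008-123278471), the strongest of the gene, had 49.8 and 32.9, from 125 and 51 reads, a ratio of -0.58 (-1.08 to -0.10). The intron 1 peak 14.22 kb from the start (chr8:123263630-123264074) had 46.7 and 27.6, from 116 and 43 reads, a ratio of -0.74 (-1.28 to -0.22), and was the Piezo1 peak below 0.66. The counting intervals of the other 4 peaks include 0. The intron 2 peak at 39.62 kb had 36.7 and 28.5 (-0.35, -0.90 to 0.18), and the intron 1 peak at 27.83 kb had 29.4 and 26.3 (-0.15, -0.74 to 0.42). The remaining 2 were closer to equal. The peak 2.20 kb from the start had 37.4 and 36.4 (-0.039, -0.54 to 0.45) and is the one Piezo1 peak called in both libraries, and the peak at 50.28 kb had 20.9 in each. An intergenic peak 5.1 kb upstream (chr8:123282811-123283571), which the table gives to no gene, was stronger than any Piezo1 peak, with 67.3 and 40.1 from 173 and 61 reads, a ratio of -0.73 (-1.18 to -0.30). The ratio of Piezo1 as a whole was -0.44 with the upstream peak added, -0.25 with 1 factor for all peaks, -0.21 with median of ratios scaling (widened -0.53 to 0.095) and -0.039 over the 1 peak called in both libraries.

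Among the TRP channels the intervals of Trpc6, Trpm7 and Trpv4 overlap. Trpc6 (ENSMUSG00000031997, chr9:8544143-8680742, plus strand), a diacylglycerol-gated calcium channel, had 1 peak, in intron 1 (chr9:8544402-8544802), 259 bp from the start. Its density was 19.7 in SCR and 13.4 in siPiezo2, from 45 and 22 reads, a ratio of -0.52 (-1.32 to 0.25). That was the lowest ratio of the 9 genes and rests on the fewest reads. Another 4 intergenic peaks that lie nearest to the Trpc6 start, 41.9 to 100.7 kb away and given to no gene, had ratios of -0.34, -0.20, -0.066 and 0.16. With them added, the ratio of Trpc6 was -0.18, the second highest of the 9 genes under that setting. Trpm7 (ENSMUSG00000027365, chr2:126633485-126718150, minus strand), a channel fused to a kinase that passes magnesium and calcium, had 3 peaks that summed to 94.4 and 71.3, from 229 and 113 reads, a ratio of -0.40 (-0.74 to -0.069, widened upper bound 0.082). All 3 were lower. Its strongest peak, over the start and 5′ UTR (chr2:126717498-126718385), had 40.9 and 34.6 (-0.24, -0.74 to 0.25), and the peak in intron 24 of 38 (chr2:126657762-126658153) had 35.4 and 22.7 (-0.62, -1.22 to -0.044), below 0.66 of SCR. Trpv4 (ENSMUSG00000014158, chr5:114760213-114796482, minus strand), a channel opened by swelling, warmth and stretch, had 2 peaks and almost equal sums of 39.96 and 38.6, from 93 and 63 reads (-0.048, -0.53 to 0.43). The nearer and stronger, in intron 3, had 20.6 and 19.7. Neither lies near the start, and the closest peak, 8930 bp away, is given to Gltp in the table, with 35.7 and 25.3 (-0.48, -1.06 to 0.075). With that peak added the ratio of Trpv4 was -0.24, lower than that of Trpc6 with its upstream peaks.

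Pkd2 (ENSMUSG00000034462, chr5:104607316-104653685, plus strand) had 6 peaks, 5 of them within 7 kb of the start, and summed densities of 210 (SCR) and 182 (siPiezo2) from 519 and 287 reads. The ratio was -0.21 (-0.42 to 0.0052), and -0.15 (-0.47 to 0.17) over the 3 peaks whose windows do not overlap. The strongest, over the start and 5′ UTR (chr5:104607247-104607499), had 49.3 and 40.9, a ratio of -0.27 (-0.73 to 0.18). The other peaks near the start were lower by less than their counting error. The peak farthest from the start, 29.59 kb away in intron 7, was the higher one, with 14.5 and 18.1 from 33 and 30 reads (0.30, -0.46 to 1.06).

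Kcnk2 (ENSMUSG00000037624, chr1:188940127-189134470, minus strand) had 4 peaks, all intronic, with 98.0 in SCR and 75.5 in siPiezo2 from 232 and 122 reads. The ratio was -0.37 (-0.70 to -0.049, widened upper bound 0.097). The peak in intron 2 (chr1:189045964-189046334) had 27.2 and 16.1, from 64 and 26 reads, a ratio of -0.72 (-1.44 to -0.040), and was the Kcnk2 peak below 0.66. The strongest, in intron 6, had 39.1 and 26.0 (-0.57, -1.13 to -0.028). The peak nearest to the start, in intron 1 at 42.40 kb, went the other way with 15.3 and 18.8 (0.28, -0.47 to 1.02). An intergenic peak 2916 bp from the outermost start had 46.9 and 36.1 (-0.37, -0.85 to 0.10).

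The TMEM63 genes differed in how many peaks they had. Tmem63a (ENSMUSG00000026519, chr1:180769909-180802677, plus strand) had 5 peaks that summed to 195 for SCR and 163 for siPiezo2, from 484 and 255 reads. The ratio was -0.25 (-0.48 to -0.030, widened upper bound 0.071). The start peak (chr1:180769510-180770025), had 45.4 and 29.5 from 113 and 46 reads, a ratio of -0.61 (-1.13 to -0.10), below 0.66 of SCR. The strongest peak, 2.44 kb downstream in intron 1, had 50.02 and 50.29 from 128 and 77 reads (0.0076, -0.42 to 0.43), so the direction of Tmem63a rested on its other peaks. Tmem63b (ENSMUSG00000036026, chr17:45971097-45997185, minus strand) had 1 peak, in intron 10 of 23 (chr17:45982791-45983016), with 19.4 and 19.0 from 45 and 31 reads (-0.029, -0.74 to 0.66). No member peak lay at its start. The closest peak, 9053 bp away, is given to Mrpl14 in the table.

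A peak covered the outermost start of 5 genes, Piezo1, Piezo2, Pkd2, Tmem63a and Trpm7, and all 5 were lower, beside 51.9% of the 9036 peaks over an outermost start of any gene. Their median was -0.58, with a range from -0.95 to -0.24, beside a median of -0.014 for all such peaks. Of the 5, the peaks of Piezo2 and Tmem63a (2) were below 0.66, beside 4.63% of all such peaks. The start peaks of Piezo1, Piezo2, Pkd2 and Tmem63a were called in SCR only, and that of Trpm7 in both libraries. The values for all start peaks cover every calling class. Of all peaks called in SCR only, 73.1% were lower, with a median of -0.23. The part of the calling in the values of these 5 peaks was not tested. The peaks that lie nearest to a start of a member but carry no member's symbol gave a further 11 regions at 8 genes, 9 of them intergenic. Of the 11, 10 were lower and 1 higher, with a median of -0.34, beside 63.7% lower and a median of -0.13 over all peaks. The peak upstream of Piezo1 was the 1 below 0.66, a share near the 13.5% of all peaks. With these regions added to the sums, all 9 genes lay below the median of all genes, with Tmem63b at -0.097 and Trpv4 at -0.24.

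Other channels opened or modulated by stretch, touch or swelling lay closer to the median of all genes. Of 25 such genes, 23 had a peak (not Tmc1 or Pkd2l1), 17 were lower and 6 higher, beside 62.6% of all genes lower, and their median ratio was -0.14 beside -0.093. Of their 96 peaks, 7 (7.29%) were below 0.66 of SCR, beside 13.5% of all peaks, and 3 above 1.5, beside 3.21%. Among those with a summed density at or above the median of all genes, the lowest were the calcium-activated chloride channel Ano1 (166 in SCR and 136 in siPiezo2, ratio -0.29, -0.54 to -0.049), the acid-sensing channel Asic3 (-0.27) and the calcium-activated cation channel Trpm4 (-0.21). The highest were Lrrc8a, a subunit of the volume-regulated anion channel (223 and 232, ratio 0.060, -0.14 to 0.25), Tmem150c (0.017) and Trpm3 (0.015). Of the 23 genes, 2 were below 0.66, beside 6.21% of all genes, and 1 above 1.5, beside 1.54%. Each had 1 peak, and they were named after their values were seen. They were Trpv1 (-0.63, -1.24 to -0.047) and Tmem63c (-0.62, -1.46 to 0.17, which includes 0), and in the other direction Tmc2, with 8.33 and 17.7 from 18 and 30 reads (1.0, 0.11 to 1.93).

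Partners of the channels and genes of the calcium stores gave 19 of 20 genes with a peak (not Mdfi), 10 lower and 9 higher, beside 62.6% of all genes lower, with a median of -0.15. Of the 19, 0 were past the threshold, beside 6.21% of all genes below 0.66 and 1.54% above 1.5. The sign of this median depended on the peaks used. It was 0.011 without the weakest 25% of all peaks, 0.015 over peaks called in both libraries, 0.070 over promoter peaks and 0.017 with only each gene's strongest peak. Of their 121 peaks, 16 (13.2%) were below 0.66 and 5 above 1.5, shares near the background of 13.5% and 3.21%. Among those with a summed density at or above the median of all genes, the lowest were the IP3 receptor Itpr3 (128 in SCR and 90.5 in siPiezo2, ratio -0.50, -0.79 to -0.21), the store-operated channel subunit Orai2 (80.3 and 58.8, ratio -0.44) and the calcium/calmodulin-dependent kinase Camk2g (216 and 162, ratio -0.41). The highest of these were the calcium pump of the endoplasmic reticulum Atp2a2 (115 and 136, ratio 0.24, -0.018 to 0.51), the membrane scaffold Stom (0.19) and the plasma membrane calcium pump Atp2b1 (0.16). On the authors' scaling, the spread of both lists reached further above 0 than that of the 9 members, which are fewer genes.

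**Figure D4:**
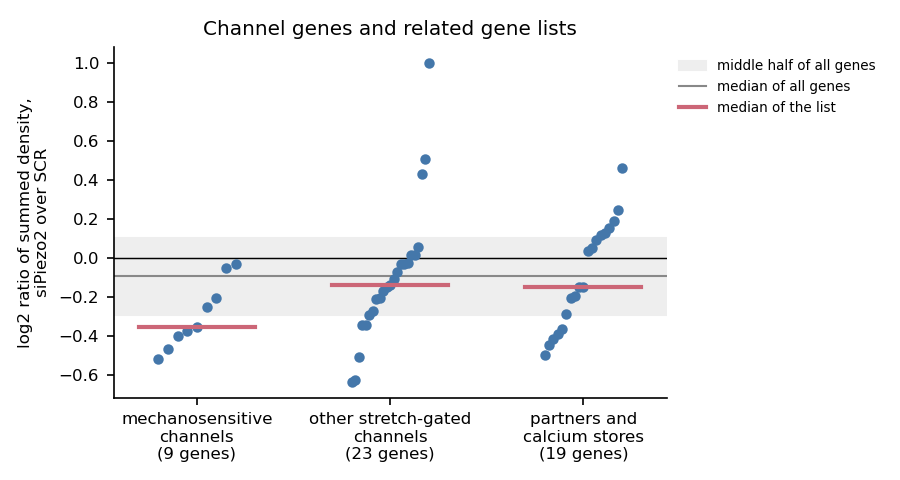
Log2 ratio of summed density (siPiezo2 over SCR, 1 library each), 1 point per gene, for the 9 channel genes, 23 other stretch-gated channels and 19 partner and calcium store genes, with the median of each list (-0.35, -0.14 and -0.15) and the median and quartiles of all genes in grey. On the authors' scaling, the 9 channel genes all lie below 0, and the other lists lie on both sides of it.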

How the data were processed

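ATAC-seq was carried out on 2 libraries of TGF-β treated cardiac fibroblasts, 1 per condition. The values deposited by the authors are a signal, normalized read densities per peak, rescaled with a linear fit on the peaks called in both libraries. The submitters' processing notes name BWA 0.7.12 and mm10. The methods also name Picard and MACS2, and the program that normalized the densities was not given in the sources used here. The positions and scaffolds of the table belong to GRCm39, and the genome in use was GRCm38.p6, so no sequence was read by coordinates of the table. The authors' own comparison columns (M value, A value, log2 fold change and p-value) were not used, and 0 columns of other samples were left out.

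Whole reads per window were recovered from both density columns, assuming that 1 read had been added per window. On simulated data for SCR against siPiezo2, reads of 100% of 63316 windows were recovered. Log2 ratios used a pseudocount of 1, and gene values are sums over the peaks given to the gene. Fold changes below 0.66 or above 1.5 were counted. The members and the lists were chosen with earlier results of these data known. All members were named, with peaks past the threshold, nearest to the start, or strongest in the gene, plus peaks at the ends of a range or without a member's symbol, chosen after their values were seen. In each other list the 3 lowest and 3 highest genes at or above the median density were named. Alternatives were a pseudocount of 0.1, other scalings, the weakest 25% of peaks left out, peaks called in both, a 2-fold threshold, promoter peaks only, the strongest peak only, the gene body only and separate windows. Calculations used scipy 1.17.1, pandas 2.3.3 and numpy 2.4.6 in Python 3.11.15, and plots used matplotlib 3.10.9.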

Additional observations from a re-analysis of the deposited data

How the results depend on the processing

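Of 135 values under other settings, 116 stayed within the value's 95% interval (counting error for a gene, the binomial interval of the median for a list) or within 1.5 times the count, 18 moved and 1 reversed. The cause of these moves was not tested. Median of ratios scaling, which shifted the median of all genes by 0.14, gave a median of -0.14 over the member peaks, 3 peaks below 0.66 (8.35% of all peaks) and a median of -9.948e-06 over the other stretch-gated channels. Without the weakest 25% of peaks, Piezo2 was at -0.75 and 0 peaks were above 1.5 (3.09% of all). Peaks called in both libraries gave -0.039 for Piezo1, -0.73 for Piezo2, a peak median of -0.45, 2 of 11 peaks below 0.66 (5.36% of all) and 0 above 1.5 (4.41%). A 2-fold threshold left 1 lower peak (2.76% of all). Promoter peaks gave -0.58 for Piezo1, and the strongest peak alone gave -0.58 for Piezo1, -1.16 for Piezo2 and, reversed, 0.0076 for Tmem63a. Recovered reads scaled to equal totals, a setting added after seeing the data, gave -0.27 for Piezo2, a peak median of -0.11, 3 peaks below 0.66 (7.74% of all) and 2 above 1.5 (8.35%). Also added after seeing the data were widened intervals, intervals under the other scalings, separate windows for the peak counts, leaving out Piezo2 or the strongest peak of a gene, and adding peaks nearest to a start. Piezo1, Piezo2, Trpc6, Trpm7, Kcnk2 and Pkd2 were below 0 under every setting that gave them a value. Trpv4 and Tmem63b, whose intervals include 0, were above 0 under 3 settings each. The median of the partner and calcium store genes, whose interval also includes 0, turned to between 0.011 and 0.070 under 4 settings. Promoter peaks gave a value for 4 member genes, peaks called in both for 6 and the stronger peaks for 8. No paired analysis was possible because there was 1 library per condition, and no replicate could be left out. Depth limits single peaks, with a median of 34.5 reads per member peak in siPiezo2, and scatter beyond counting error and the missing replicates add to this.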
